A study of Danio rerio with 6 samples.

Results

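The genes described here are those of 7 solute carrier families whose products move amino acids, or close relatives of amino acids, across membranes: SLC1, SLC3, SLC6, SLC7, SLC36, SLC38 and SLC43. They were chosen by name only, as every gene of the deposited table whose lower-cased name begins with one of these family symbols followed by a member number. This gave 74 of the 27126 gene names, and 51 of them had at least 10 counts in 3 or more libraries and were tested. One of the 74, slc7a6os, carries the name of a transporter because it lies beside slc7a6 and is not itself a transporter.

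The comparison is of 2 zebrafish melanoma lines, with 3 libraries of ZMELR1 and 3 of ZMEL1 that the study calls independent biological replicates. ZMEL1 was grown from 1 melanoma of 1 fish that was mutant for p53 and mitfa, carried human oncogenic BRAF under the melanocyte promoter of mitfa, and had received an mitfa rescue cassette with GFP. ZMELR1 is the population that regrew from ZMEL1 after months in a BRAF inhibitor, so both lines share every one of these alleles. ZMELR1 was kept in PLX4032 (vemurafenib) at 1 μM and ZMEL1 in DMSO, both at 28.5 °C in medium with 10% fetal calf serum and glutamax, a stable form of glutamine. Selection and the drug in the medium cannot be told apart, and each line is 1 line, so p-values measure the spread between libraries of that line only.

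Cells take up amino acids in 2 ways. Some carriers use the sodium or proton gradient to concentrate them inside the cell (SLC1, SLC6, SLC36 and SLC38), while others exchange 1 amino acid for another or let it run down its own gradient (SLC7 and SLC43). The light chains of SLC7 that act as exchangers reach the membrane only when bound to a heavy chain of SLC3. Leucine taken up in this way and arginine in the lysosome are sensed by mTORC1, the kinase that couples growth to nutrients, and shortage of amino acids raises many carrier genes through the transcription factor ATF4. The roles given below are those known from the human and mouse proteins.

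The total count was between 42591832 and 83741911 in ZMELR1 and between 62973267 and 67904002 in ZMEL1, and the lowest of these totals was that of ZMELR1 replicate 3. Levels are CPM, counts relative to the library size after correction by TMM, and they do not account for gene length, so a level is compared only with the same gene in another library. The 74 names took 0.217% to 0.374% of the counts of a ZMELR1 library and 0.309% to 0.449% of those of a ZMEL1 library. Of 8 markers of melanocytes and melanoma, 6 were in the table, and their summed level was 1457 to 1618 CPM in ZMELR1 and 878 to 995 CPM in ZMEL1. Most of this sum was mitfa (832 to 949 CPM in ZMELR1, 428 to 591 in ZMEL1) and sox10 (558 to 608 and 383 to 437 CPM). The levels of dct and pmela overlapped between the lines. The leukocyte markers in the table summed to 3.07 to 3.58 CPM in ZMELR1 and 2.64 to 3.62 CPM in ZMEL1, those of muscle to 0.966 to 1.52 and 0.585 to 1.099 CPM, and those of glia, which include the carrier slc1a3a, to 16.3 to 19.3 and 18.8 to 20.8 CPM. Neuron markers summed to 61.5 to 89.8 CPM in ZMELR1 and 76.5 to 88.4 CPM in ZMEL1, and epithelial markers, nearly all krt8, to 2627 to 3306 and 2039 to 2860 CPM. The lists of endothelium (0.272 to 0.308 CPM in ZMELR1, 0.828 to 1.31 CPM in ZMEL1) and of erythroid cells (0.0550 to 0.173 and 0.614 to 3.13 CPM) were at low levels, with every ZMELR1 library below every ZMEL1 library. Of the single markers, tyrp1b of melanocytes and mbpa of glia were higher in ZMELR1 (log2 fold change 1.98 and 2.17, edgeR's adjusted p = 0.0423 and 0.0144). Lower in ZMELR1 were krt4 of epithelium (-2.13, adjusted p = 0.00997), myod1 of muscle (-2.17, 0.0251), fli1a of endothelium (-2.36, 0.0143) and gata1a of erythroid cells (-6.46, 0.00444). The lower sums of endothelium and erythroid cells came from fli1a and gata1a, since the other markers of these lists overlapped between the lines. The other glia markers did not follow mbpa. The log2 fold changes of gfap, plp1a and slc1a3a were 0.05, -0.04 and -0.59 (edgeR's adjusted p = 0.947, 0.944 and 0.251). In epithelium krt5 and cdh1 were lower and krt8 higher (-2.12, -0.48 and 0.32, edgeR's adjusted p = 0.0548, 0.734 and 0.451). In muscle ckma was higher and desma lower (log2 fold change 1.62 and -0.57, edgeR's adjusted p = 0.165 and 0.315). In ZMELR1 myod1 reached at most 0.0514 CPM and gata1a 0.0495 CPM, so both calls rest on very few ZMELR1 counts. Both were under 10 counts in every ZMELR1 library and were tested only through their counts in ZMEL1. The same holds for fli1a, which was under 10 counts in ZMELR1 replicates 1 and 3 (0.154 and 0.223 CPM). No listed marker was at 0 in all 6 libraries, and the part of any other cell type in the results was not tested. In bulk RNA a smaller share of cells with a transcript and less of it per cell cannot be told apart.

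Of the tested carriers, 4 differed between the lines. The genes slc38a5a, SLC6A20 and slc7a10b, whose products carry glutamine, proline and small neutral amino acids, fell in ZMELR1, and slc7a6, whose product exchanges cationic against neutral amino acids, rose. The other 47 tested names did not pass. The test was edgeR's quasi-likelihood test over 16644 gene names, and "rose" and "fell" are used at a Benjamini-Hochberg adjusted p under 0.05. Of all names tested 3.48% rose and 2.64% fell (6.12% in all), against 1 and 3 of the 51 carriers, or 1.96% and 5.88% (7.84% in all). At an unadjusted p under 0.05, 6 carriers were higher (11.8%, against 13.2% of all names tested) and 12 lower (23.5%, against 11.1%). The 12 include slc1a3b, slc7a4 and slc43a1b. These reached 10 counts in at most 1 ZMELR1 library each, so they were tested only through their counts in ZMEL1. In the same way slc6a11a, among the 6 higher, was tested only through its counts in ZMELR1. The median log2 fold change was -0.07 over the 51 carriers and 0.03 over all names tested, and 26 of the 51 were below 0, against 48.1% of all names tested. The shares called rest on 4 names, while the share lower at an unadjusted p was above that of all names tested. No test of the carriers as a set was run. Without ZMELR1 replicate 1, and without each of the ZMEL1 libraries, all 4 calls were lost. Without ZMELR1 replicate 2 there were 3 calls, and without ZMELR1 replicate 3 there were 5, of which 3 were higher. Over all 16644 names the calls also went from 1019 to 300 without ZMELR1 replicate 1. They were 325, 367 and 467 without ZMEL1 replicates 1, 2 and 3, and 506 and 1074 without ZMELR1 replicates 2 and 3.

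The replicate numbers of the 2 lines go together in these data, by correlations that were computed here and are given with the processing below. A fit that takes the replicate number as a block compares ZMELR1 with ZMEL1 within each number. With this block 7 carriers rose and 13 fell, or 13.7% and 25.5% of the 51, against 12.8% and 11.8% of all names tested. All 4 calls without the block were among these 20, and the 16 others moved the same way in all 3 pairs of libraries. A name whose pairs differ in direction can hardly pass the fit with the block, so this agreement gives no further support. Without regard to any test, the libraries of the lines did not overlap for 5 carriers that were higher in ZMELR1 (9.80%, against 16.9% of all names tested) and for 10 that were lower (19.6%, against 14.4%). Over the pairs, 23 carriers were lower in ZMELR1 in all 3 (45.1%, against 30.6% of all names tested), 16 were higher in all 3 (31.4%, against 32.3%) and 12 were mixed (23.5%, against 37.1%). The lower names by overlap and by pairs include slc1a3b, slc7a4 and slc43a1b, tested only through ZMEL1. The higher ones include slc6a11a, tested only through ZMELR1. With the block slc7a4 and slc6a11a were also called.

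**Figure D1:**
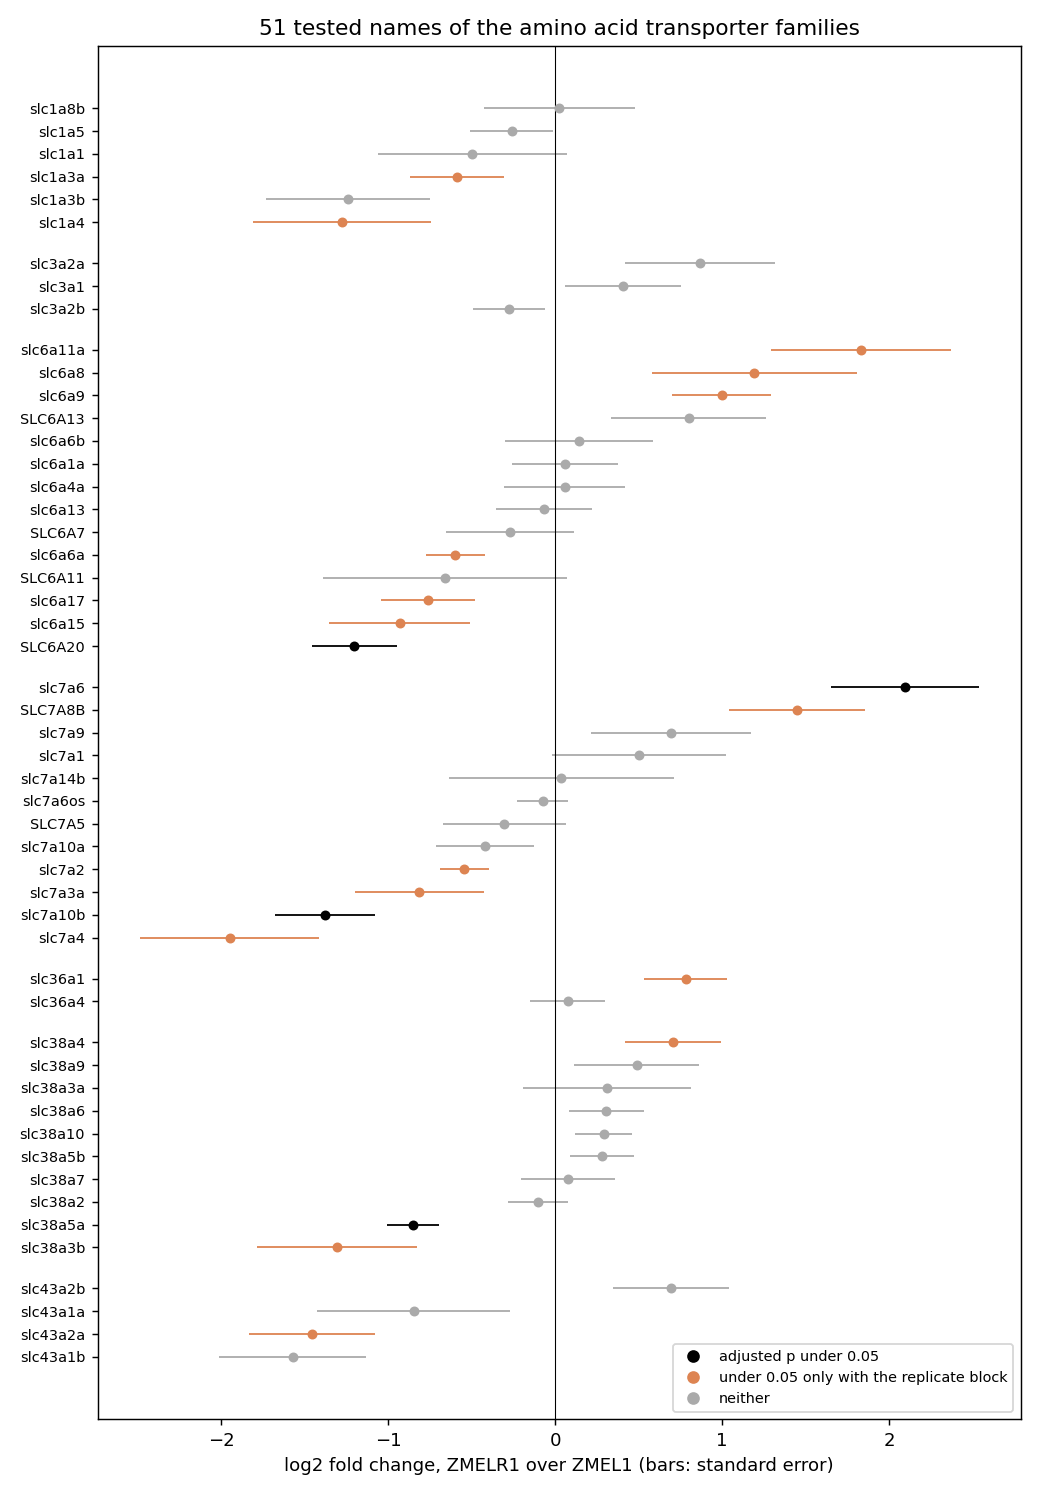
Log2 fold change of ZMELR1 over ZMEL1 for the 51 tested names, grouped by family from SLC1 at the top to SLC43 at the bottom, with bars of 1 SE (standard error). Black marks the 4 names past the threshold, orange the 16 past it only with the replicate block, and gray the other 31, which lie between -1.57 and 0.87.

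Among the 4 calls, slc38a5a encodes a carrier that exchanges protons for sodium with glutamine, asparagine, serine and glycine. It had 116, 145 and 115 CPM in ZMELR1 replicates 1, 2 and 3, against 220, 234 and 223 CPM in ZMEL1. Every ZMELR1 library was below every ZMEL1 library, and the ZMEL1 values were close together. The means were 125 ± 16.8 and 226 ± 7.35 CPM (SD, n = 3 each), a log2 fold change of -0.85 (SE 0.157, edgeR's adjusted p = 0.0255). Leaving out ZMELR1 replicate 1 ended the call (edgeR's adjusted p = 0.112), and so did leaving out any ZMEL1 library (0.0887, 0.0848 and 0.0653).

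SLC6A20 encodes the sodium coupled carrier of proline and related imino acids. Its level was 49.0, 67.8 and 35.6 CPM in ZMELR1 replicates 1, 2 and 3, against 109, 135 and 107 CPM in ZMEL1, with no overlap. Replicate 2 was the highest library in both lines and replicate 3 the lowest. The means were 50.8 ± 16.1 and 117 ± 15.8 CPM (SD, n = 3 each), a log2 fold change of -1.20 (SE 0.253, edgeR's adjusted p = 0.0395), and the call ended when ZMELR1 replicate 1 (edgeR's adjusted p = 0.127) or any ZMEL1 library (0.106, 0.111 and 0.0801) was left out.

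The light chain slc7a10b encodes a copy of the exchanger of alanine, serine, cysteine, glycine and D-serine. There were 66, 107 and 27 counts of it in ZMELR1 replicates 1, 2 and 3, against 149, 201 and 173 counts in ZMEL1, or 1.13, 1.18 and 0.669 CPM against 2.53, 2.87 and 2.47 CPM. The lines did not overlap. The log2 fold change was -1.38 (SE 0.301, edgeR's adjusted p = 0.0433), close enough to the threshold that the call was lost without any 1 of the 6 libraries (edgeR's adjusted p between 0.0512 and 0.131).

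The light chain slc7a6, of the exchanger that sends arginine and lysine out in return for neutral amino acids and sodium, was the 1 carrier that rose without the block. It had 191, 228 and 291 counts in ZMELR1 replicates 1, 2 and 3, against 56, 66 and 78 counts in ZMEL1, or 3.27, 2.51 and 7.21 CPM against 0.950, 0.942 and 1.11 CPM. The ZMEL1 libraries were within a narrow range, and ZMELR1 replicate 3 stood well above the other ZMELR1 libraries. The log2 fold change was 2.10 (SE 0.441, edgeR's adjusted p = 0.0396), and it was 1.52 (edgeR's adjusted p = 0.0289) without ZMELR1 replicate 3. Without ZMELR1 replicate 1 and without ZMEL1 replicates 1, 2 and 3 the call was lost (edgeR's adjusted p = 0.0830, 0.140, 0.128 and 0.110). Its neighbor slc7a6os had 23.5 to 26.3 CPM in ZMELR1 and 24.5 to 27.5 CPM in ZMEL1 (log2 fold change -0.07, edgeR's adjusted p = 0.796). The sources used here do not say whether strand was used in counting, so reads where the 2 genes overlap cannot be told apart.

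With library size alone in place of TMM the calls of slc38a5a, SLC6A20 and slc7a10b were lost (edgeR's adjusted p = 0.0515, 0.0597 and 0.0553). That of slc7a6 was lost with limma-voom (adjusted p = 0.0539). With at least 10 counts in every library, 0 carriers were called higher and 1 lower, so 3 of the 4 calls were lost. Among them were slc7a6 and SLC6A20 (edgeR's adjusted p = 0.0536 for SLC6A20). Without replicate 3 of both lines 3 of the 4 calls were lost, that of SLC6A20 among them (edgeR's adjusted p = 0.0639). There 3 other carriers were called that were not called with all libraries. The older fit called 2 carriers lower, so 1 of the lower calls was lost there.

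**Figure D2:**
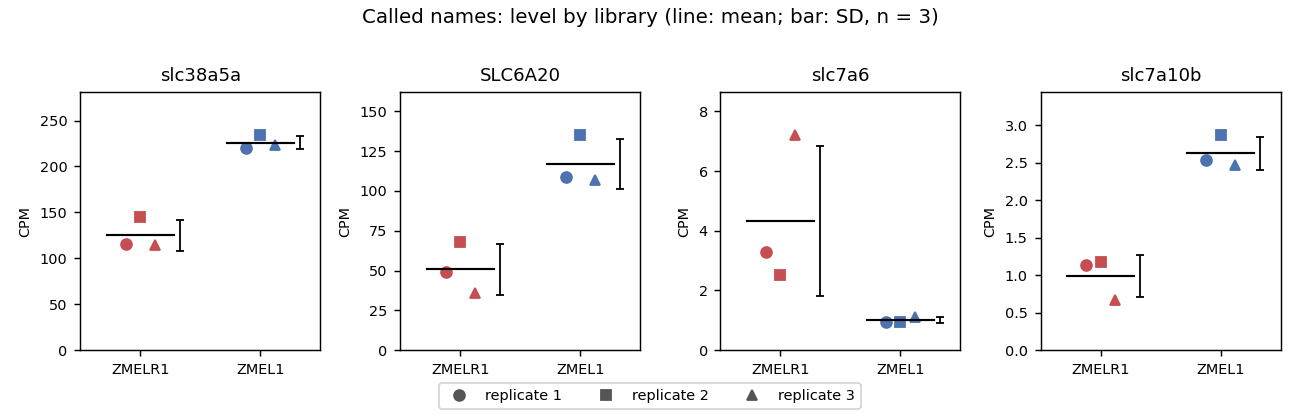
Level in CPM of the 4 called names in each library, ZMELR1 in red and ZMEL1 in blue, with the mean as a line and 1 SD as a bar (n = 3). The lines do not overlap in any of the 4, and in slc7a6 the value of 7.21 CPM in ZMELR1 replicate 3 lies apart from the 3.27 and 2.51 CPM of the other ZMELR1 libraries.

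The heavy chains and the large neutral amino acid carriers, which together bring in leucine, were not among the calls. The heavy chain slc3a2b (CD98) had 515, 610 and 396 CPM in ZMELR1 replicates 1, 2 and 3, against 650, 673 and 520 CPM in ZMEL1. The ranges overlapped (log2 fold change -0.28, SE 0.217, edgeR's adjusted p = 0.470), although ZMELR1 was the lower library in each of the 3 pairs. SLC7A5, the light chain of LAT1 and the main route of leucine into many tumor cells, stood at 432, 647 and 277 CPM in ZMELR1, against 533, 765 and 375 CPM in ZMEL1. Here the spread within a line, 2.34 times in ZMELR1 and 2.04 times in ZMEL1 from the lowest to the highest library, was wider than the difference between the lines (log2 fold change -0.30, SE 0.369, edgeR's adjusted p = 0.649). Within each number ZMELR1 was again the lower library, with log2 differences of -0.30, -0.24 and -0.44 (edgeR's adjusted p = 0.0825 with the block). The other copy of the heavy chain, slc3a2a, had 19 to 33 counts in ZMELR1 and 12 to 18 counts in ZMEL1. Its log2 fold change was 0.87 (SE 0.450, edgeR's adjusted p = 0.282). That of slc3a1, the heavy chain of cystine and cationic amino acid exchange in kidney, was 0.41 (edgeR's adjusted p = 0.507).

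SLC7A8B, a light chain of the LAT2 type that exchanges a wider range of neutral amino acids, had 7.99, 7.81 and 3.02 CPM in ZMELR1 replicates 1, 2 and 3, against 2.75, 2.34 and 1.84 CPM in ZMEL1. Every ZMELR1 library was above every ZMEL1 library, with ZMELR1 replicate 3 close to the ZMEL1 values. The log2 fold change was 1.45 (SE 0.406), with an edgeR's adjusted p of 0.0853, and of 0.0186 with the block. Without ZMELR1 replicate 3 it was 1.77 (edgeR's adjusted p = 0.0151). The partner copy of slc7a10b, slc7a10a, had 45.4 to 101 CPM in ZMELR1 and 83.1 to 114 CPM in ZMEL1 (log2 fold change -0.42, edgeR's adjusted p = 0.412).

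The uniporters of SLC43, which let large neutral amino acids run down their gradient, had low counts. For slc43a2a there were 93, 151 and 26 counts in ZMELR1 replicates 1, 2 and 3, against 234, 264 and 221 in ZMEL1. The lines did not overlap in CPM (1.59, 1.66 and 0.644 in ZMELR1, against 3.97, 3.77 and 3.16 in ZMEL1), and the gene fell with the block (log2 fold change -1.52, edgeR's adjusted p = 0.0173) and not without it (-1.45, adjusted p = 0.0691). The log2 fold changes of slc43a1b, slc43a1a and slc43a2b were -1.57, -0.85 and 0.69 (edgeR's adjusted p = 0.0853, 0.404 and 0.265). With the block the adjusted p was 0.0600, 0.0521 and 0.190. The first of these rests on 1 to 10 counts in a ZMELR1 library and 14 to 17 in a ZMEL1 library.

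The cationic amino acid carriers of SLC7 bring in arginine and lysine without a heavy chain. Of these slc7a3a and slc7a2 fell with the block, as did their orphan relative slc7a4 (11.8% of all names fell with it). The gene slc7a3a had 296, 387 and 135 CPM in ZMELR1 replicates 1, 2 and 3, against 465, 610 and 364 CPM in ZMEL1. The ranges overlapped, yet each ZMELR1 library was below the ZMEL1 library of its number, with log2 differences of -0.65, -0.66 and -1.43 (log2 fold change with the block -0.91, edgeR's adjusted p = 0.0242, and 0.245 without it). Its relative slc7a2 had 30.9, 35.1 and 37.5 CPM in ZMELR1 and 49.5, 49.9 and 51.3 CPM in ZMEL1. The ZMEL1 libraries of slc7a2 hardly differed and the lines did not overlap (log2 fold change -0.54, SE 0.149, edgeR's adjusted p = 0.0808, and 0.0227 with the block). The orphan slc7a4 had 5, 10 and 1 counts in ZMELR1, against 10, 31 and 24 in ZMEL1, and fell with the block (log2 fold change -1.99, edgeR's adjusted p = 0.0340, and 0.0822 without it). For slc7a1, the general carrier of this kind, the levels were 1.15 to 1.88 CPM in ZMELR1 and 0.339 to 1.60 CPM in ZMEL1 (log2 fold change 0.50, edgeR's adjusted p = 0.594).

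In SLC1, the sodium coupled carriers of glutamate and of small neutral amino acids, 5 of 6 tested names had a log2 fold change below 0, as had 48.1% of all names tested. At an unadjusted p under 0.05, 2 of the 6 were lower (11.1% of all names), and 2 fell with the block (11.8% of all names). Of the 2 lower at an unadjusted p, slc1a3b was under 10 counts in every ZMELR1 library, so it was tested only through its counts in ZMEL1. The gene slc1a4, of the alanine, serine and cysteine carrier ASCT1, had 123, 215 and 48.9 CPM in ZMELR1 replicates 1, 2 and 3, against 304, 447 and 189 CPM in ZMEL1. ZMELR1 replicate 2 lay above ZMEL1 replicate 3, while within each number ZMELR1 was lower, with log2 differences of -1.31, -1.05 and -1.95. The log2 fold change was -1.44 with the block (edgeR's adjusted p = 0.00812) and -1.28 without it (adjusted p = 0.198). The glutamate carrier slc1a3a had 7.46, 9.16 and 5.40 CPM in ZMELR1, against 11.6, 13.3 and 8.24 CPM in ZMEL1, and fell only with the block (log2 fold change -0.60, edgeR's adjusted p = 0.0328, and 0.251 without it). The difference within a number was nearly the same each time, between -0.64 and -0.54 on the log2 scale. By contrast slc1a5, named for the glutamine carrier ASCT2, had 13.03, 19.0 and 12.9 CPM in ZMELR1 and 13.6, 20.5 and 19.7 CPM in ZMEL1 (log2 fold change -0.26, SE 0.249, edgeR's adjusted p = 0.557, and 0.265 with the block).

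SLC38 holds sodium coupled carriers of glutamine and other neutral amino acids at the cell surface and in the lysosome. Of its 10 tested names 7 had a log2 fold change above 0, as had 8637 of all 16644 names tested. The gene slc38a2, whose product SNAT2 is raised by lack of amino acids, had 188, 244 and 256 CPM in ZMELR1 replicates 1, 2 and 3, against 218, 271 and 249 CPM in ZMEL1. The lines overlapped nearly in full (log2 fold change -0.10, SE 0.181, edgeR's adjusted p = 0.759). The copy slc38a5b of the called gene had 114, 117 and 162 CPM in ZMELR1 and 102, 122 and 99.8 CPM in ZMEL1 (log2 fold change 0.28, edgeR's adjusted p = 0.401). Next to slc38a2 in the GRCz12tu annotation, with 1 gene between them, lies slc38a4, a carrier of neutral amino acids best known from liver. Its level was 52.2, 47.7 and 88.1 CPM in ZMELR1, against 33.1, 32.6 and 49.3 CPM in ZMEL1. It was higher in ZMELR1 in each pair and rose with the block (log2 fold change 0.68, edgeR's adjusted p = 0.0141, and 0.191 without it).

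The glutamine carrier slc38a3b had 11, 15 and 17 counts in ZMELR1 replicates 1, 2 and 3, against 28, 31 and 61 in ZMEL1, and fell with the block (log2 fold change -1.25, edgeR's adjusted p = 0.0317, and 0.155 without it). In CPM its lines did not overlap. The lysosomal arginine sensor slc38a9, which passes the presence of arginine to mTORC1, had 5.97, 5.99 and 12.9 CPM in ZMELR1, against 4.48, 5.68 and 7.50 CPM in ZMEL1 (log2 fold change 0.49, SE 0.374, edgeR's adjusted p = 0.457). The lysosomal glutamine carrier slc38a7 had a log2 fold change of 0.08 and the carriers slc38a10 and slc38a6 of 0.29 and 0.31 (edgeR's adjusted p = 0.888, 0.335 and 0.438). In SLC36, proton coupled carriers of small amino acids, slc36a1 of lysosome and cell surface had 105, 92.6 and 141 CPM in ZMELR1, against 62.2, 50.1 and 84.6 CPM in ZMEL1. The lines did not overlap, the differences within a number were 0.75, 0.89 and 0.74 on the log2 scale, and it rose with the block (log2 fold change 0.79, edgeR's adjusted p = 0.00716, and 0.115 without it). Its relative slc36a4 had a log2 fold change of 0.08 (edgeR's adjusted p = 0.866).

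SLC6 is the largest of these families in the table, with 25 names, and holds the carriers of neurotransmitters, of osmolytes and of amino acids. Of 14 tested, SLC6A20 fell without the block, and with it 3 rose and 4 fell. Of all names tested 2.64% fell without the block, and 12.8% rose and 11.8% fell with it. Among the carriers of amino acids, the glycine carrier slc6a9 had 227, 266 and 120 CPM in ZMELR1 replicates 1, 2 and 3, against 96.5, 120 and 90.4 CPM in ZMEL1. ZMELR1 replicate 3 stood at the level of the highest ZMEL1 library and the other ZMELR1 libraries well above it. The log2 fold change was 0.93 with the block (edgeR's adjusted p = 0.0222) and 1.00 without it (adjusted p = 0.0989), and without ZMELR1 replicate 3 it was 1.27 (adjusted p = 0.0156).

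The branched-chain amino acid and proline carrier slc6a15 had 82.9, 175 and 73.8 CPM in ZMELR1, against 119, 280 and 233 CPM in ZMEL1. Replicate 2 was the highest library in both lines, and the gene fell with the block (log2 fold change -0.95, edgeR's adjusted p = 0.0385, and 0.226 without it). Its close relative slc6a17, a carrier of synaptic vesicles, had 25.8, 33.3 and 42.5 CPM in ZMELR1 and 39.0, 59.8 and 73.1 CPM in ZMEL1, and also fell with the block (log2 fold change -0.74, edgeR's adjusted p = 0.0108, and 0.158 without it). In contrast to slc6a15, replicate 3 was the highest library in both lines.

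Among carriers of other small molecules in SLC6, the taurine carrier slc6a6a had 25.1, 33.4 and 25.0 CPM in ZMELR1 replicates 1, 2 and 3, against 39.9, 45.0 and 41.6 CPM in ZMEL1. Its lines did not overlap, and it fell with the block (log2 fold change -0.61, edgeR's adjusted p = 0.0210, and 0.0979 without it). The copy slc6a6b had 10.8 to 27.6 CPM in ZMELR1 and 10.2 to 24.0 CPM in ZMEL1 (log2 fold change 0.14, edgeR's adjusted p = 0.871). The creatine carrier slc6a8 had 23.0, 39.3 and 94.0 CPM in ZMELR1, against 8.79, 28.8 and 30.7 CPM in ZMEL1. Both lines spread widely, with replicate 1 lowest and replicate 3 highest in each, and slc6a8 rose with the block (log2 fold change 1.15, edgeR's adjusted p = 0.0255, and 0.278 without it).

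The GABA carrier name slc6a11a, with 23, 62 and 11 counts in ZMELR1 and 7, 15 and 4 in ZMEL1, also rose with the block (log2 fold change 1.78, edgeR's adjusted p = 0.0185, and 0.0969 without it). Another row, named SLC6A11, had more reads and went the other way (6 to 150 counts in ZMELR1, 43 to 159 in ZMEL1). It was lower in ZMELR1 in all 3 pairs (log2 fold change -0.66, edgeR's adjusted p = 0.616, and 0.101 with the block). The table also holds 3 rows named for SLC6A13. How reads were split between such close relatives is not given in the sources used here. The carriers of GABA slc6a1a and of serotonin slc6a4a had log2 fold changes of 0.06 each (edgeR's adjusted p = 0.929 and 0.942).

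**Figure D3:**
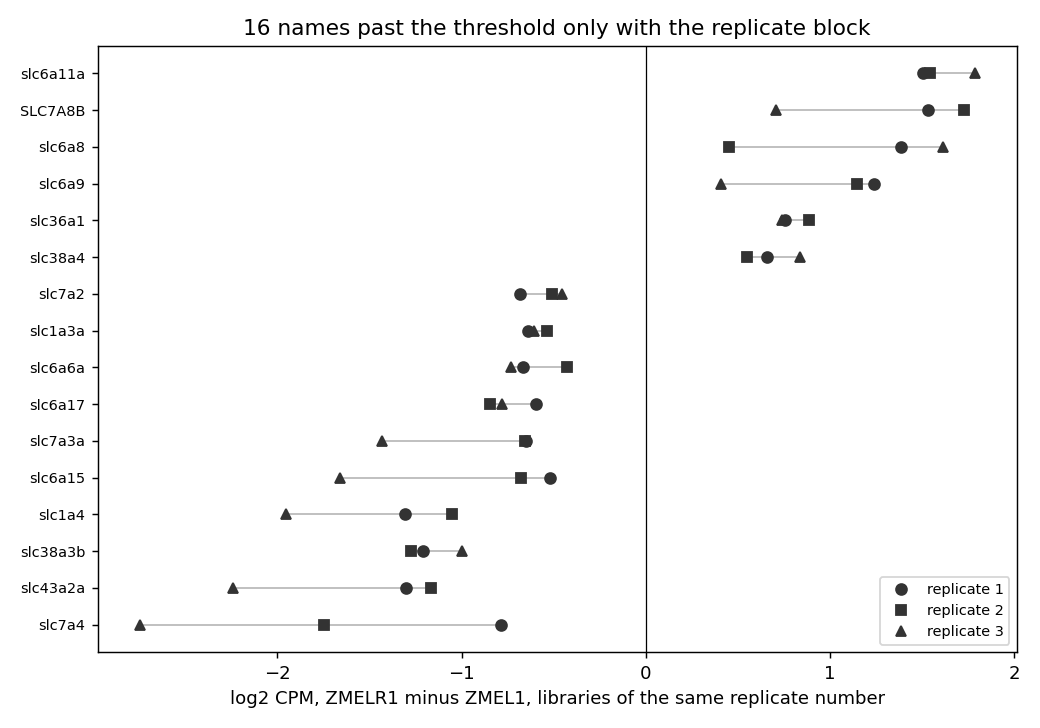
Difference in log2 CPM (prior count of 2) between the ZMELR1 and ZMEL1 libraries of the same replicate number, for the 16 names past the threshold only with the replicate block. All 3 points of a name lie on 1 side of 0, which selection by the fit with the block favors, with 6 names higher and 10 lower in ZMELR1. The spread between the points is widest for slc7a4, which rests on few counts.

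Most of the 12 carriers with most reads followed the replicate number, and the lines were apart only for slc38a5a, slc36a1 and SLC6A20. Of all names tested the lines were apart for 16.9% that were higher in ZMELR1 and 14.4% that were lower. The 12 names of most reads held 87.6% of the summed CPM of all 74, and 9 of them were highest in replicate 2 of both lines, among them slc3a2b, SLC7A5, slc7a3a, slc1a4 and slc6a15. Of these 12, slc36a1 was the 1 name highest in replicate 3 of both lines. From the lowest to the highest library the level of slc1a4 differed 4.41 times in ZMELR1 and 2.36 times in ZMEL1, that of slc7a3a 2.87 and 1.68 times, and that of slc38a5a 1.26 and 1.06 times. Of all 51 tested carriers, 21 were highest in replicate 2 of both lines and 14 in replicate 3 of both. The same counts were not made over all names tested. Over all names, libraries of the same number also went together (correlations of 0.552, 0.587 and 0.508), so this order is not shown to be particular to the carriers. ZMELR1 replicate 3 was the lowest ZMELR1 library for 27 of the 51, against 40.1% of all names tested. That library also had the fewest reads and the lowest summed level of pcna and mcm2 to mcm7, genes of DNA replication, at 488 CPM, against 994 and 1159 CPM in ZMELR1 replicates 1 and 2 and 1365 to 1750 CPM in ZMEL1. The part of these differences between cultures in the results was not tested. Without replicate 3 of both lines, 3 carriers rose and 1 fell without the block, against 438 and 448 of all 16644 names, and 8 rose and 21 fell with it, against 3899 and 4372 of all names.

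**Figure D4:**
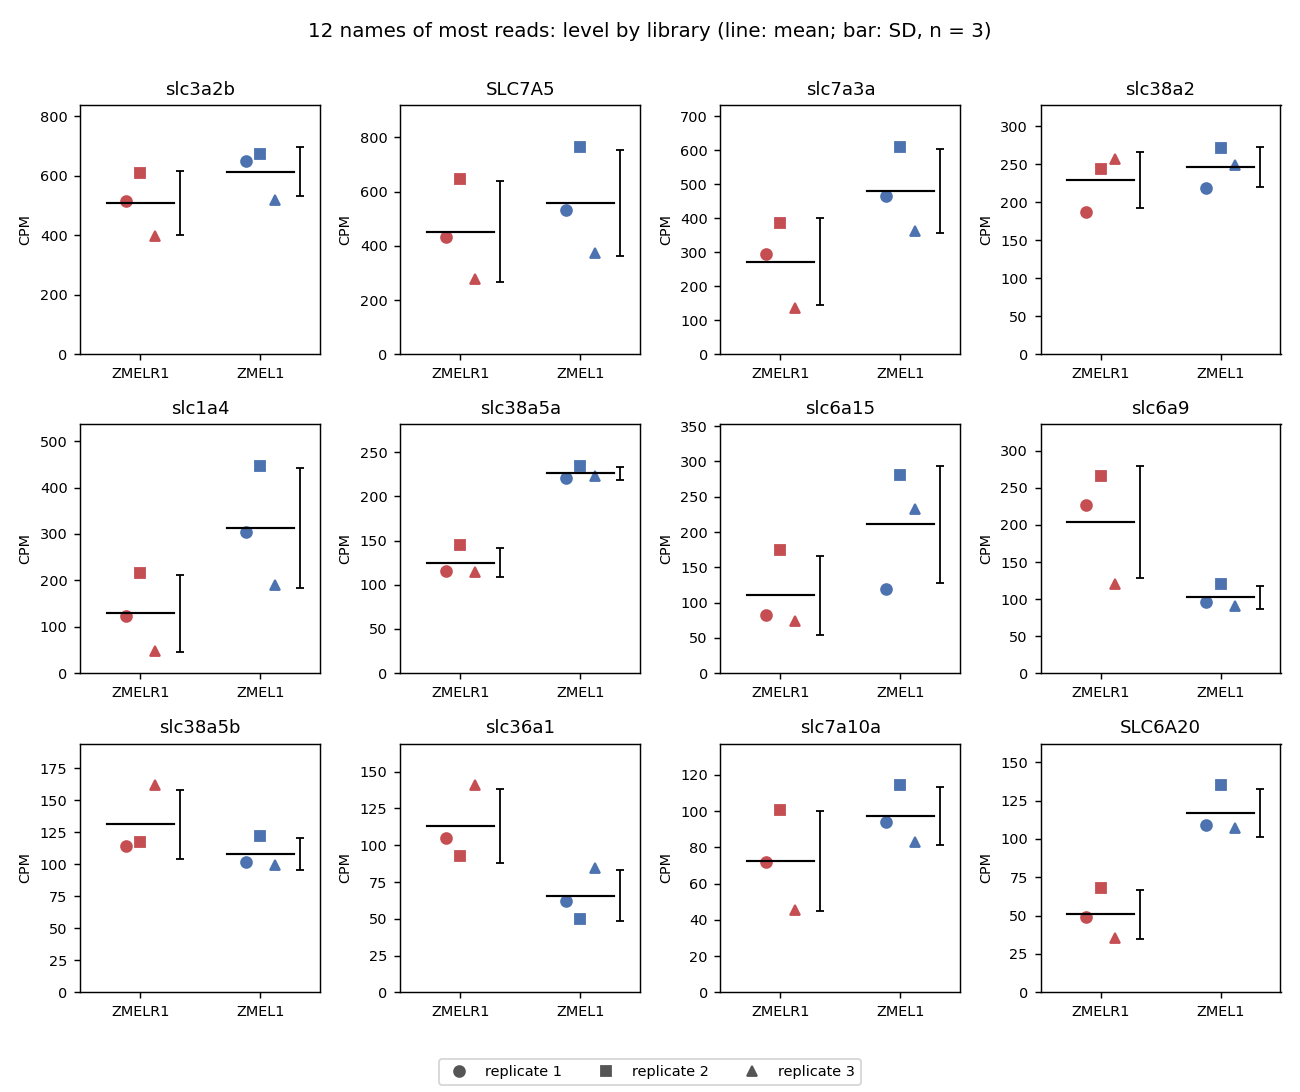
Level in CPM of the 12 names of most reads in each library, ZMELR1 in red and ZMEL1 in blue, with the mean as a line and 1 SD as a bar (n = 3). Squares, for replicate 2, are the highest point of both lines in 9 of the 12 panels, and the lines do not overlap for slc38a5a, slc36a1 and SLC6A20. Over all names tested they do not overlap for 16.9% that are higher and 14.4% that are lower in ZMELR1.

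Zebrafish keep 2 copies of many of these genes, and both copies were tested for 8 pairs. The ratio of one copy to the other within a library does not depend on library size, apart from the prior count. For slc38a5a over slc38a5b the log2 ratio was 0.02, 0.30 and -0.50 in ZMELR1 replicates 1, 2 and 3, against 1.11, 0.94 and 1.16 in ZMEL1, a difference of -1.13. For slc43a2a over slc43a2b it was 1.82, 1.08 and -0.29 in ZMELR1, against 2.98, 3.14 and 3.04 in ZMEL1, a difference of -2.18. In both pairs the share of the first copy was lower in every ZMELR1 library. For slc7a10a over slc7a10b the log2 ratio was 5.95, 6.38 and 6.02 in ZMELR1 and 5.20, 5.30 and 5.05 in ZMEL1, so that here it was the second copy whose share was lower in every ZMELR1 library. In the other 5 pairs the lines overlapped. A two-sided exact permutation test over the 6 libraries gave p = 0.1 for each of the 3 pairs without overlap, the smallest value that 3 libraries against 3 allow (adjusted p = 0.267 over the 8 pairs), so that no pair could pass the threshold by this test, and no other test was run on the ratios. The 3 pairs were picked out by their values.

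**Figure D5:**
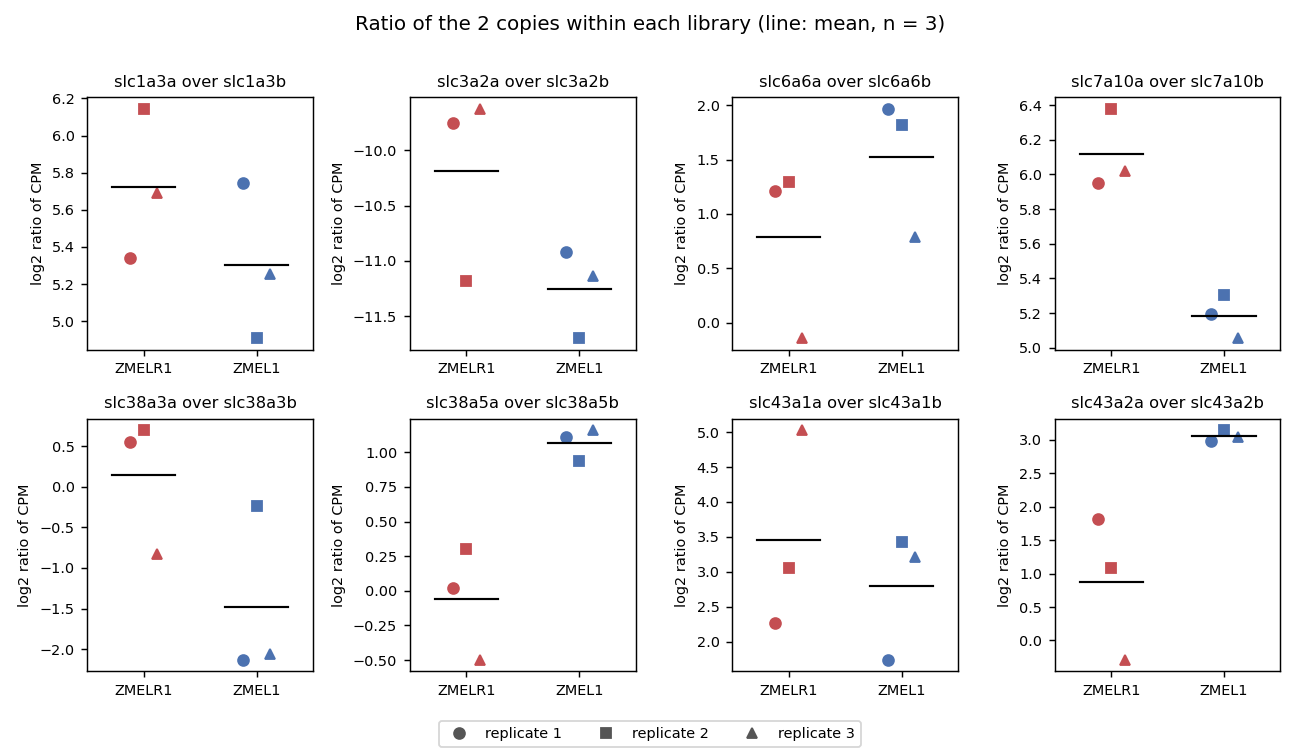
Log2 ratio of the CPM of 2 copies within each library (prior count of 2), for the 8 pairs in which both were tested, ZMELR1 in red and ZMEL1 in blue with the mean as a line (n = 3). The vertical axes differ between panels and do not start at 0. The lines are apart for slc7a10a over slc7a10b, slc38a5a over slc38a5b and slc43a2a over slc43a2b.

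The 23 names that were not tested had 2 to 50 counts over the 6 libraries together (median 19). They were slc1a2a, slc1a2b, slc1a6, slc1a7a, slc1a7b, slc1a8a, slc1a9, SLC6A3, slc6a13l, slc6a14, slc6a18, slc6a19a, slc6a19b, slc6a1b, slc6a1l, slc6a2, slc6a4b, slc6a5, slc7a14a, slc7a7, slc38a11, slc43a3a and slc43a3b. Many of these are carriers of brain, kidney or gut in mammals, such as the glutamate carriers slc1a2a and slc1a2b, the dopamine carrier SLC6A3, the noradrenaline carrier slc6a2 and the neutral amino acid carriers slc6a19a and slc6a19b. Just inside the limit, slc1a3b had 9, 9 and 3 counts in ZMELR1 and 11, 29 and 13 in ZMEL1, and slc7a9 had 8, 15 and 13 in ZMELR1 and 8, 5 and 11 in ZMEL1. Just outside it, slc6a13l reached 10 counts in only 2 libraries, with 2, 2 and 10 in ZMELR1 and 4, 2 and 20 in ZMEL1.

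Genes that act beside these carriers were read from lists chosen with earlier results of these data known, and their counts are to be read against the 3.48% of all names that rose and the 2.64% that fell, or 12.8% and 11.8% with the block. Of 28 tested genes of amino acid sensing at the lysosome, 3 rose and 25 did not pass (4 rose and 5 fell with the block). The 3 were rragd, a Rag GTPase that recruits mTORC1 to the lysosome, and sesn1 and sesn3, which encode sestrins, inhibitors of mTORC1 of which the human relative SESN2 senses leucine. The level of rragd was 4.35, 3.46 and 3.27 CPM in ZMELR1 replicates 1, 2 and 3, against 0.356, 0.257 and 0.286 CPM in ZMEL1 (log2 fold change 3.62, SE 0.306, edgeR's adjusted p = 0.00227). That of sesn1 was 82.5, 62.0 and 96.6 CPM in ZMELR1, against 30.1, 25.1 and 24.3 CPM in ZMEL1 (log2 fold change 1.60, edgeR's adjusted p = 0.00784). Both calls held without any 1 library. The log2 fold change of sesn3 was 1.62 (edgeR's adjusted p = 0.0220), and its call was held only without ZMELR1 replicate 3 (adjusted p = 0.0123, and 0.0661 to 0.0954 without each other library). The zebrafish sesn2 went the other way, with 40.5, 66.9 and 42.9 CPM in ZMELR1, against 84.3, 106 and 55.0 CPM in ZMEL1. Its log2 fold change was -0.71 (edgeR's adjusted p = 0.199), and it fell with the block (adjusted p = 0.0303). It is also counted in the list of amino acid response genes below. The median of the list was 0.11, against 0.03 over all names tested.

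Of 28 tested genes of the amino acid response through ATF4, 2 fell and 26 did not pass, with a median log2 fold change of -0.33 (2 rose and 8 fell with the block). The gene cth, of the enzyme that makes cysteine from cystathionine, had 101, 116 and 120 CPM in ZMELR1 replicates 1, 2 and 3, against 270, 243 and 237 CPM in ZMEL1 (log2 fold change -1.15, SE 0.152, edgeR's adjusted p = 0.00808), and its call held without any 1 library. The serine synthesis gene psph, which is also in the list of enzymes, had 16.1, 16.9 and 19.8 CPM in ZMELR1 and 39.2, 40.4 and 27.1 CPM in ZMEL1 (log2 fold change -1.02, edgeR's adjusted p = 0.0373). Its call was lost without ZMELR1 replicates 1 and 2 and ZMEL1 replicates 1 and 2 (edgeR's adjusted p = 0.133, 0.102, 0.134 and 0.118). The ZMELR1 libraries were lower than those of ZMEL1 for asns too. This gene, of asparagine synthetase and a common readout of the response, had 364, 536 and 208 CPM in ZMELR1 and 571, 718 and 588 CPM in ZMEL1 (log2 fold change -0.76, edgeR's adjusted p = 0.214, and 0.0443 with the block). Like slc1a4 and slc7a3a it was highest in replicate 2 of both lines. Other genes of the list went the other way. Every ZMELR1 library of ddit3 was above every ZMEL1 library (log2 fold change 1.34, edgeR's adjusted p = 0.171, and 0.0726 with the block). Its level was 54.6, 63.3 and 214 CPM in ZMELR1 replicates 1, 2 and 3, against 34.5, 47.5 and 48.8 CPM in ZMEL1. ZMELR1 replicate 3 thus stood well above the other ZMELR1 libraries. The 2 that rose with the block were atf5a and ndrg1a (log2 fold change 0.65 and 0.44, edgeR's adjusted p = 0.0378 and 0.0462). For atf5a too ZMELR1 replicate 3 was the highest, with 57.6, 72.7 and 132 CPM in ZMELR1, against 42.7, 53.5 and 63.0 CPM in ZMEL1.

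Of 30 tested enzymes that use glutamine, glutathione, serine and arginine, 3 fell and 27 did not pass, with a median of -0.27 (2 rose and 9 fell with the block). They were psph, glula and glud1b. This list shares psph, shmt2, psat1 and phgdh with that of the amino acid response, and psph and shmt2 are counted among the names that fell with the block in both. Glutamine synthetase, glula, which makes glutamine from glutamate, had 40.5, 35.9 and 27.0 CPM in ZMELR1 replicates 1, 2 and 3, against 94.3, 85.2 and 64.9 CPM in ZMEL1. The lines did not overlap (log2 fold change -1.24, SE 0.220, edgeR's adjusted p = 0.0225), and the call was lost without ZMELR1 replicates 1 and 2 and ZMEL1 replicates 1 and 2 (adjusted p = 0.0582, 0.0607, 0.0874 and 0.0749). The glutamate dehydrogenase copy glud1b had a log2 fold change of -1.19 (edgeR's adjusted p = 0.0489) and lost its call without any 1 library (0.0559 to 0.150). The other copies did not fall. The level of glud1a was 278, 246 and 212 CPM in ZMELR1, against 171, 139 and 95.0 CPM in ZMEL1. Its log2 fold change was 0.86 (edgeR's adjusted p = 0.0846), and it rose with the block (adjusted p = 0.00974). That of glulb was -0.03 (edgeR's adjusted p = 0.960). Of 16 tested carriers of amino acids and peptides in other families, the peptide carrier slc15a1a fell (log2 fold change -3.17, SE 0.710, edgeR's adjusted p = 0.0451) and 15 did not pass (3 rose and 3 fell with the block), with a median of 0.04. The level of slc15a1a was 0.0856, 0.0661 and 0.0248 CPM in ZMELR1, against 0.866, 0.700 and 0.186 CPM in ZMEL1, and its call held only without ZMEL1 replicate 3 (edgeR's adjusted p = 0.0168, and 0.0812 to 0.134 without each other library). Its counts were under 10 in every ZMELR1 library, so it was tested only through its counts in ZMEL1. With at least 10 counts required in every library, 15 of these carriers were tested and 0 fell.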

How the data were processed

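Libraries of polyA RNA from 3 replicates of ZMELR1 and 3 of ZMEL1 were sequenced by the authors, aligned to Zv9 with TopHat2 and counted per Ensembl gene with HTSeq-count. What was deposited is 1 table of raw read counts by gene name, not normalized and without positions. The submitters' processing notes also name limma. Strand setting and counting mode are not given in the sources used here.

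Counts were analysed in R 4.3.3 with edgeR 4.0.16 (TMM, quasi-likelihood F test, Benjamini-Hochberg adjustment) over 16644 names with at least 10 counts in 3 or more libraries. Library sizes are totals over all rows. The standard error is the log2 fold change over the square root of F. Log2 CPM used a prior count of 2. Members and lists were chosen with earlier results of these data known, and the table's names were used as they stand. Named are the carriers called with or without the block, the 12 of most reads, the leucine, glutamine and serine carriers and their copies, and the genes called in each list. Other names with values (slc3a1, slc7a1, slc7a6os, slc38a6, slc38a7, slc38a10, slc36a4, slc6a1a, slc6a4a, SLC6A11, asns, ddit3, atf5a, ndrg1a, sesn2, glud1a, glulb) were added after their values were seen.

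Whether numbers pair the libraries was checked before calls were compared. After each line's mean was removed, log2 CPM deviations gave correlations of 0.552, 0.587 and 0.508 for the libraries that share a number and of -0.506 to -0.0253 for the others. The sources do not say what the numbers share.

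Alternatives were RLE factors, library size only, 3 other filters, DESeq2 1.42.0, limma-voom (limma 3.58.1), the older and the robust fit, the replicate block and each library left out. Leaving out replicate 3 of both lines was chosen after seeing the data. On simulated counts for this comparison (16392 names tested), edgeR found 1.02% of 98 genes with a true change of 2 times and 56.0% of 100 with one of 4 times, with 5 false calls. With the block it found 0% and 44.0%, with 3 false calls, and DESeq2 found 30.6% and 81.0%, with 45. The simulated libraries carried no pairing by number, so the block was not tested on paired data. Figures used matplotlib 3.10.9. No sequences are shown, since the reference used here holds gene names only.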

Additional observations from a re-analysis of the deposited data

How the results depend on the processing

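All 4 carriers called kept their direction under every alternative run. Of the 51 tested carriers 4 were called, and the count was 20 with the replicate block (7 higher, 13 lower), 9 with DESeq2 (3 higher, 6 lower), 3 with limma-voom (0 higher, 3 lower), 1 with library size only (1 higher, 0 lower) and 1 of 42 with at least 10 counts in every library (0 higher, 1 lower). Over all names the count of 1019 became 4101 with the replicate block, 2343 with DESeq2 and 463 of 14605 with at least 10 counts in every library. Leaving out 1 library at a time, the carriers called were 0 to 5, those higher 0 to 3, those lower 0 to 2, and all names called 300 to 1074. The lone spread of a line with 2 libraries is pooled with that of the other. Without replicate 3 of both lines 4 carriers were called (3 higher, 1 lower), but 3 of these were not among the 4 called with all libraries. With replicate 3 left out and the block as well, 29 were called (8 higher, 21 lower), against 8271 of all names. RLE factors, filterByExpr, no filter and the robust fit each called 1 carrier higher and 3 lower, and the older fit 1 and 2. Scaling moved the median log2 fold change of all names by less than 0.1. Counts under about 30 in a library, as for slc7a4, slc43a1b and slc38a3b, limit those values. On the simulated counts DESeq2 made 45 false calls and edgeR 5.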

Other observations

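Some names below the limit for testing had counts that stood apart, which are given as values only. The amino acid carrier slc6a14 had 1, 3 and 33 counts in ZMELR1 replicates 1, 2 and 3, against 3, 4 and 6 in ZMEL1, so that 1 library held most of its reads. The name slc6a13l was highest in replicate 3 of both lines, with 10 counts in ZMELR1 and 20 in ZMEL1, against 2 to 4 in the other libraries. The noradrenaline carrier slc6a2 had 5, 4 and 3 counts in ZMELR1 and 1, 0 and 1 in ZMEL1, and slc38a11 had 5, 7 and 5 in ZMELR1 and 1, 2 and 1 in ZMEL1. The glutamate carrier slc1a7b had 0 counts in each ZMELR1 library and 3, 1 and 3 counts in ZMEL1.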
